A study of Mus musculus with 12 samples.

Results

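The Reg genes encode small secreted proteins built on a C-type lectin fold. The 6 genes described here are Reg1, Reg2, Reg3a, Reg3b, Reg3g and Reg4, chosen by symbol from the count tables of an RNA-Seq study of murine enteroids, and they are 6 of the 18929 genes that the tables list. Enteroids are epithelial cultures grown in Matrigel from isolated crypts, and these came from the jejunum. They were harvested after 5 days in ENR medium, which carries EGF, Noggin and R-spondin 1, together with penicillin and streptomycin. The study asked what the histone deacetylases HDAC1 and HDAC2 each do within the epithelium.

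There were 12 libraries, 4 from control enteroids (wild-type in the labels, villin-Cre in the study's text), 4 from Hdac1-deficient and 4 from Hdac2-deficient enteroids. The mutants carried floxed Hdac1 or Hdac2 alleles and the villin-Cre transgene, which expresses the recombinase in intestinal epithelial cells, on a mixed strain background. The age of the mice was not stated. The methods name 1 mouse per genotype as the source of the crypts, so genotype cannot be told apart from mouse or culture line. The p-values below therefore measure only the spread between these libraries, which may be technical.

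In the intestine, Reg3b and Reg3g are known as bactericidal lectins of the epithelium, made in response to microbial signals through MyD88 and to interleukin-22 through STAT3. Reg4 marks secretory cells of the crypt, among them enteroendocrine and goblet-type cells. Reg1 is made by epithelial cells of the small intestine and by the exocrine pancreas, where Reg2 is also found. Reg3a belongs to the Reg3 group and is, like Reg3b and Reg3g, a secreted lectin.

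The libraries held 20693200 to 30658628 counted reads, and values are given as CPM, the counts of a gene scaled to a common library size. Hdac1 fell from 90.6 ± 2.76 CPM in control to 4.23 ± 0.834 CPM in Hdac1-deficient enteroids (mean ± SD, n = 4 each). Hdac2 was at 137 ± 3.85 CPM in control and 75.9 ± 2.89 CPM in Hdac2-deficient enteroids, a log2 fold change of -0.84 that is smaller than 2-fold although every mutant library lay below every control library. These are counts over the whole gene. The study itself reported deletion of each gene by RT-PCR, Western blot and immunofluorescence. Markers of other cells were scarce: of 10 leukocyte markers only Ptprc, Csf1r and Itgam were listed, Ptprc with 0 to 4 counts per library, and 5 of 12 stromal and endothelial markers were listed. The latter summed to 1.51 to 1.87 CPM in control and 1.33 to 1.84 in Hdac2-deficient libraries, but to 2.29 to 2.59 in Hdac1-deficient libraries, without overlap. The summed leukocyte list was higher in both mutants, at 1.13 to 1.61 CPM in control, 2.27 to 3.41 in Hdac1-deficient and 2.56 to 3.52 in Hdac2-deficient libraries, and the part of these markers in the Reg values was not tested.

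Most of the members lie side by side. On mouse chromosome 6 (GRCm38, GENCODE M21) a 98.2 kb stretch from 78370657 to 78468872 holds, in order, Reg3b, Reg3d, Reg3a, Reg2, Reg1 and Reg3g, all protein-coding. Reg3d is a family gene that is not among the 6 members. Reg3g and Reg3d are on the minus strand, the others on the plus strand. Reg4 stands alone on chromosome 3, from 98222156 to 98236748 on the plus strand, with 6 exons.

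The promoter windows of the 4 expressed members of the cluster are printed because these neighbours differed most in how they moved. Each window runs from 250 bases before to 50 bases after the RefSeq transcription start (GRCm38.p6). Capitals mark 3 motifs on either strand, namely TTCNNNGAA (the core bound by STAT factors), CACCTG (an E-box) and TATAAA (the TATA box), the last of which reads TTTATA on the opposite strand. The motifs were not chosen independently of these genes.
Reg3b, chr6:78370635-78370934, plus strand: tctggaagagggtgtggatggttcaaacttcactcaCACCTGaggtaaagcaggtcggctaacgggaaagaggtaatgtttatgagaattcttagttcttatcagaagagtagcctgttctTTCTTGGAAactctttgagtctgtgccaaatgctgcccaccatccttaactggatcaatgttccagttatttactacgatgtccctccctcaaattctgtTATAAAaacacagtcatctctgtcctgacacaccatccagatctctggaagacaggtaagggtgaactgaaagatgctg
Reg3a, chr6:78380459-78380758, plus strand: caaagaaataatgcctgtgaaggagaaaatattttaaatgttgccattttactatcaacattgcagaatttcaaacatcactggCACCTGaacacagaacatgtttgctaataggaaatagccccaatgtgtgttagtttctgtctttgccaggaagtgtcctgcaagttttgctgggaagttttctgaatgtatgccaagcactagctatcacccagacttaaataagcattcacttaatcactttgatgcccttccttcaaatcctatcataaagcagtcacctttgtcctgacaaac
Reg3g, chr6:78468825-78469124, minus strand: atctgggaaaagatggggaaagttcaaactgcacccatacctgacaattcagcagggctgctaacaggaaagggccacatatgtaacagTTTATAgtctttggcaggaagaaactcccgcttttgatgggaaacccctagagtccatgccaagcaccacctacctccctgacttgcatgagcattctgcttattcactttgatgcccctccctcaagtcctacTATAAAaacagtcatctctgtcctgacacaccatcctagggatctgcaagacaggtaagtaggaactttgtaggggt
Reg1, chr6:78425733-78426032, plus strand: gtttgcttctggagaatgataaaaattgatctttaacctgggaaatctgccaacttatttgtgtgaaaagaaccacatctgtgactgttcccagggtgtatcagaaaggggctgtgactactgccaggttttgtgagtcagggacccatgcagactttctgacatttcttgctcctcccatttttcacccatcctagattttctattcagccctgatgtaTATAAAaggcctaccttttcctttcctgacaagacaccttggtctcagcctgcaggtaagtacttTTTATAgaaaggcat

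Within these windows the STAT-type sequence TTCTTGGAA stood in Reg3b alone among the 6 members, at position -129 from the start, and such a match occurs in 8.3% of 32851 mouse promoter windows. CACCTG was present in the windows of Reg2, Reg3a, Reg3b and Reg4, against 20.2% of all windows. TATAAA was present in Reg1, Reg2, Reg3b and Reg3g, against 13.6% of all windows, and each of these 4 had a copy between 27 and 30 bases before the start. None of the motif matches overlapped another. The windows of Reg3b and Reg3g were 71.4% identical over 294 aligned bases and shared an unbroken run of 29 bases that begins 20 bases before the start of Reg3b. Those of Reg3a and Reg3g were 73.9% identical over 249 aligned bases. A motif match is a description of the letters and says nothing of binding.

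Because the genes are paralogs, their transcripts were compared for stretches that could take each other's reads. Reg1 and Reg2 were the closest pair at 81.5% identity, followed by Reg3a and Reg3b at 75.9% and Reg3b and Reg3g at 74.7%. No window of 100 nucleotides, the read length, was shared between any member and another gene, and the longest identical run between 2 members was 35 bases, in Reg3b and Reg3g. Of windows of 50 nucleotides only Reg1 had any in common with other genes, 32 of 855, none of them Reg genes.

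Reg3b, one of the bactericidal lectins, moved most. It was at 16.6, 12.7, 10.6 and 13.1 CPM in the control libraries, at 311, 311, 288 and 291 CPM in the Hdac1-deficient libraries and at 130, 117, 118 and 132 CPM in the Hdac2-deficient libraries. The 3 groups were fully separated, with the lowest mutant library far above the highest control. The rise was 22.9-fold in Hdac1-deficient enteroids (log2 fold change 4.52 ± 0.102 SE, adjusted p = 2.34e-10) and 9.49-fold in Hdac2-deficient enteroids (3.25 ± 0.11, adjusted p = 1.98e-08). Ranked by log2 fold change from the most increased, Reg3b was number 68 of 14246 genes tested in the Hdac1 comparison and number 89 of 14007 in the Hdac2 comparison.

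Reg3a rose beyond 2-fold in only 1 of the mutants. Its control libraries had 102, 78.4, 78 and 92.4 CPM, its Hdac1-deficient libraries 304, 297, 280 and 303 CPM and its Hdac2-deficient libraries 144, 132, 124 and 167 CPM. The groups did not overlap, and the Hdac2-deficient libraries stood nearer to control than to the other mutant. In Hdac1-deficient enteroids the log2 fold change was 1.77 ± 0.0874 (adjusted p = 1.71e-07). In Hdac2-deficient enteroids it was 0.70 ± 0.13 (adjusted p = 0.00304), past the p threshold but under the 2-fold limit.

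Reg3g, the best studied bactericidal member, went up in both mutants and was the highest in Hdac2-deficient enteroids. It had 118, 101, 102 and 110 CPM in control, 239, 236, 244 and 235 CPM in Hdac1-deficient and 306, 305, 280 and 324 CPM in Hdac2-deficient libraries. The order of the mutants was thus the reverse of that for Reg3a and Reg3b, again without overlap. The log2 fold changes were 1.16 ± 0.0427 (adjusted p = 1.93e-14) and 1.51 ± 0.0542 (adjusted p = 7.64e-11).

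Reg4, on the other chromosome, followed the order seen for Reg3g. The values were 56.4, 53.3, 52.3 and 56.3 CPM in control, 145, 156, 150 and 149 CPM in Hdac1-deficient and 194, 182, 178 and 177 CPM in Hdac2-deficient libraries. No library of one group reached the range of another. Reg4 rose by 2.77-fold with loss of Hdac1 (log2 fold change 1.47 ± 0.0385, adjusted p = 4.16e-17) and by 3.38-fold with loss of Hdac2 (1.76 ± 0.0378, adjusted p = 2.18e-19).

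Reg1 was the member with the most reads in every library and the only tested one below control. It stood at 1100, 1050, 1060 and 1120 CPM in control, at 535, 502, 417 and 481 CPM in Hdac1-deficient and at 983, 882, 881 and 928 CPM in Hdac2-deficient libraries. Every mutant library was below every control library, by a wide margin with Hdac1 deficiency and a narrow one with Hdac2 deficiency. The log2 fold change was -1.15 ± 0.0621 in Hdac1-deficient enteroids (adjusted p = 3.71e-09) and -0.23 ± 0.0361 in Hdac2-deficient enteroids (adjusted p = 1.42e-05), the second of them under the 2-fold limit. In these bulk libraries fewer cells that make a transcript and less of it per cell cannot be told apart.

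Reg2 was practically absent. It had 0, 2, 0 and 1 counts in the control libraries and 2, 3, 1 and 1 counts in the Hdac2-deficient libraries, and the Hdac1 table, from which genes whose counts summed to less than 10 were dropped, does not list it. These values are at or under a floor of 3 counts per library (0.0971 to 0.145 CPM), and Reg2 did not pass the filter on low counts. Tested without that filter, its log2 fold change with Hdac2 deficiency was 1.29 (adjusted p = 0.276 by edgeR), so a difference was not detectable at this depth. Reg3d, which lies 2.4 kb from Reg3b, was near the lower end of what these libraries resolve, with 0.902 ± 0.17 CPM in control, 1.4 ± 0.305 with Hdac1 deficiency and 1.23 ± 0.181 with Hdac2 deficiency. Its mutant and control libraries overlapped, and its log2 fold changes were 0.66 ± 0.209 (adjusted p = 0.00916) and 0.47 ± 0.21 (adjusted p = 0.0558).

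**Figure D1:**
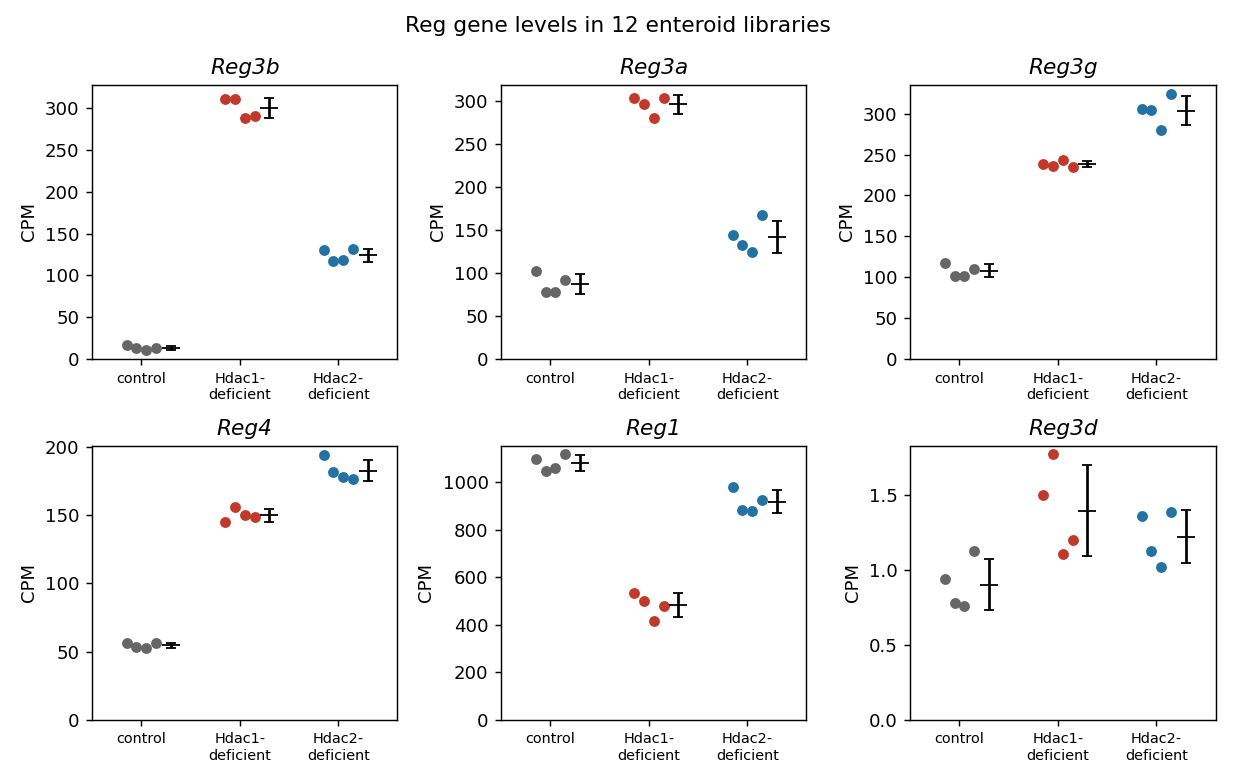
CPM (vertical axis, from 0, a separate scale per panel) of 5 Reg members and the family gene Reg3d in each library, by group on the horizontal axis. Points are libraries and the black marks are the mean with SD of 4. In the panels of Reg3b, Reg3a, Reg3g, Reg4 and Reg1 the 3 groups do not overlap, with control the lowest in every panel but that of Reg1. The points of Reg3d, all under 2 CPM, overlap. The share of all genes without overlap was not counted.

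In all, 4 of the 5 members tested were called higher with Hdac1 deficiency (Reg3a, Reg3b, Reg3g and Reg4) and 1 was called lower (Reg1), where a call took more than a 2-fold change and an adjusted p no greater than 0.05. Across all 14246 genes tested 6.87% were called higher and 3.71% lower. With Hdac2 deficiency 3 of 5 were called higher (Reg3b, Reg3g and Reg4) and 0 lower, against 5.45% and 2.84% of 14007 genes. Without the 2-fold limit edgeR placed all 5 past the p threshold in both comparisons, 4 upward and 1 downward, but so did 64.6% of all genes in the Hdac1 comparison, 32.7% upward and 31.9% downward, and 62.3% in the Hdac2 comparison, 31.4% upward and 30.9% downward. In either direction at the 2-fold limit the shares were 10.6% and 8.3%. Both comparisons use the same 4 control libraries. The lack of overlap with control, given above for each of the 5 members, also held for genes with small changes. Among these were Stat3, at log2 fold changes of 0.16 and 0.28, and Myd88, at 0.38 and 0.27. The share of all genes without overlap with control was not counted.

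**Figure D2:**
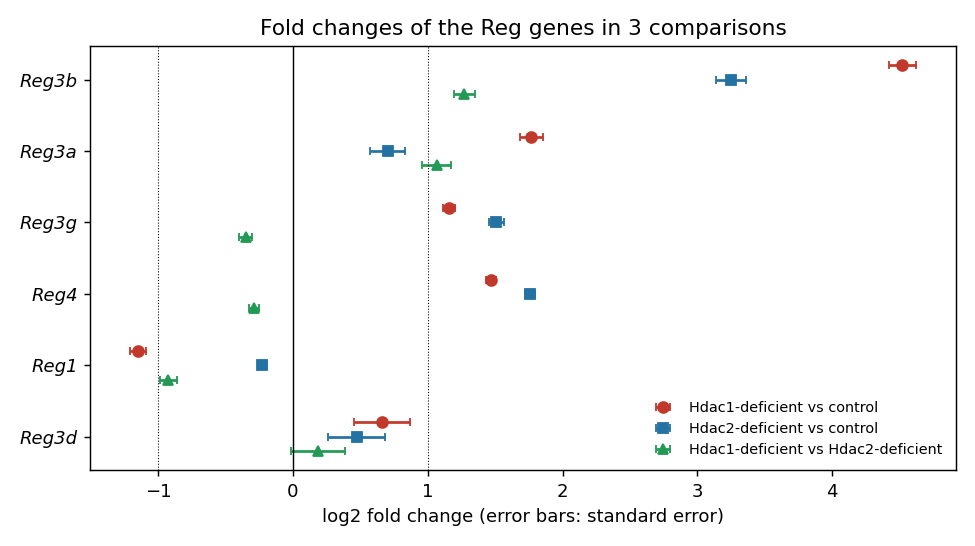
The log2 fold changes of 5 Reg members and Reg3d (horizontal axis) with their standard errors, for Hdac1-deficient against control (circles), Hdac2-deficient against control (squares) and Hdac1-deficient against Hdac2-deficient (triangles). Dotted lines mark the 2-fold limit. Reg3b stands farthest to the right at 4.52 and 3.25, Reg1 lies left of 0 in all 3 comparisons, and the triangles of Reg3g and Reg4 lie left of 0 while those of Reg3b and Reg3a lie right of it.

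The mutants were then compared with each other in 1 fit of all 12 libraries. With Hdac1 deficiency Reg3b was 2.41-fold above its level with Hdac2 deficiency (log2 difference 1.27 ± 0.0767, adjusted p = 7.13e-08). Reg3a was 2.09-fold higher (1.06 ± 0.107, adjusted p = 1.74e-05). Thus 2 of 5 members were called higher in the Hdac1-deficient libraries, against 2.74% of 14510 genes, and 0 were called lower, against 2.89%, with 5.62% called in either direction.

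The other members differed by less than 2-fold, and all of them were lower in Hdac1-deficient enteroids. The log2 difference was -0.92 ± 0.0625 for Reg1 (adjusted p = 2.34e-08), which ran close to the limit. It was -0.35 ± 0.0452 for Reg3g (adjusted p = 2.5e-06) and -0.29 ± 0.0354 for Reg4 (adjusted p = 1.93e-07). At any size of change, 45.9% of all genes differed in this comparison, 22.3% higher and 23.7% lower. The mutant groups did not overlap for any of the 5 members. The same held for Stat3, at a log2 difference of only -0.11, and the share of all genes without overlap was not counted.

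Set against each other within a library, the Reg3 genes changed places. For comparisons between genes the CPM were divided by the length in kb of the longest protein-coding transcript. The ratio of Reg3b to Reg3g was 0.102 to 0.138 in control, 1.17 to 1.3 in Hdac1-deficient and 0.378 to 0.42 in Hdac2-deficient libraries, so Reg3b exceeded Reg3g in the Hdac1-deficient libraries only. The ratio of Reg3a to Reg3g was 0.717 to 0.811 in control, 1.08 to 1.21 in Hdac1-deficient and 0.403 to 0.48 in Hdac2-deficient libraries, which moves it upward in one mutant and downward in the other. Reg3g to Reg4 varied far less, from 2.51 to 2.77 in control, 2 to 2.19 in Hdac1-deficient and 2.09 to 2.42 in Hdac2-deficient libraries.

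Ordered by level per kb, the control enteroids had Reg1 at 1200 ± 40, Reg3g at 140 ± 10.4, Reg3a at 106 ± 14.3, Reg4 at 53.5 ± 2.08 and Reg3b at 16.9 ± 3.17 CPM per kb. In Hdac1-deficient enteroids the order was Reg1 at 535 ± 54.9, Reg3b at 384 ± 16, Reg3a at 359 ± 13.4, Reg3g at 309 ± 5.24 and Reg4 at 147 ± 4.57 CPM per kb, where Reg3b and Reg3a differed by little more than their SDs. Reg3b, the lowest of the 5 in control, was thereby second. In Hdac2-deficient enteroids the order was Reg1 at 1020 ± 53.4, Reg3g at 394 ± 23.6, Reg4 at 179 ± 7.81, Reg3a at 172 ± 22.7 and Reg3b at 159 ± 9.9 CPM per kb, and Reg3a was not separated beyond the SDs from Reg4 above it or Reg3b below it. These orders, and the shares and ratios per kb, depend on the length taken for Reg3g and Reg3b. With the union of all annotated exons, which includes retained introns, Reg3g came to 51, 113 and 144 CPM per kb in the 3 groups, which puts it below both Reg3a and Reg4 in every group, while Reg3b still exceeded Reg3g in Hdac1-deficient enteroids only.

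As a share of the summed Reg CPM per kb, Reg1 made up 79.1% in control (77.5 to 80.1%), 30.8% in Hdac1-deficient (28.2 to 32.7%) and 53% in Hdac2-deficient libraries (51.6 to 54%). Reg3b went from 1.11% to 22.1% and 8.27%. Reg3a took 7.01%, 20.7% and 8.91%, and Reg3g 9.22%, 17.9% and 20.5%. Reg4 took 3.53%, 8.5% and 9.32%.

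**Figure D3:**
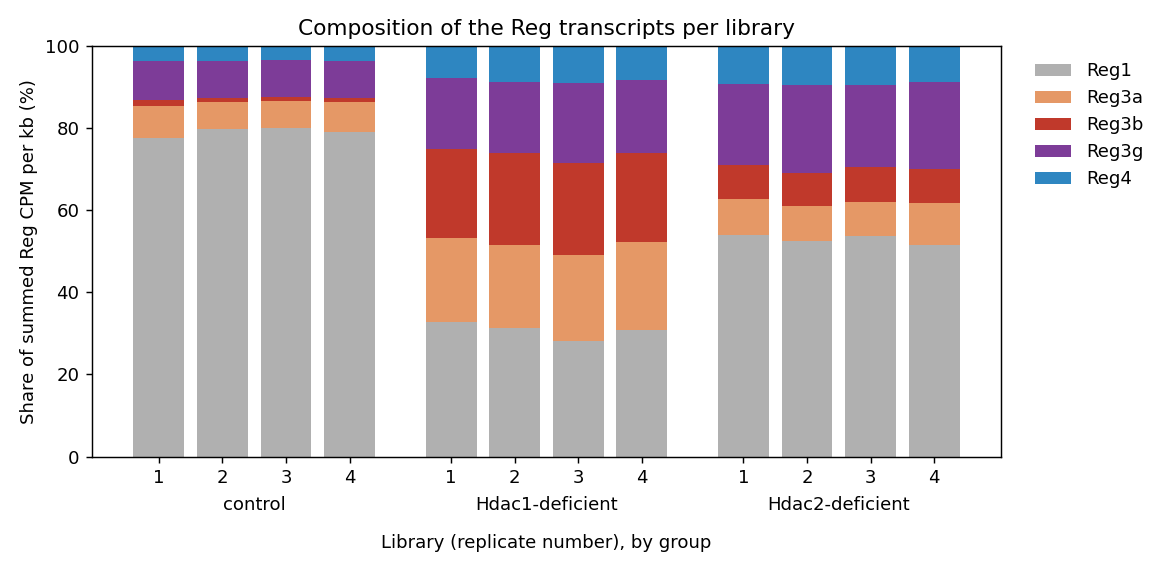
Share of the summed Reg CPM per kb (vertical axis, percent) taken by each of 5 Reg members in each of 12 libraries, by group and replicate number on the horizontal axis. Reg1 fills 77.5 to 80.1% of every control bar, 28.2 to 32.7% of every Hdac1-deficient bar and 51.6 to 54% of every Hdac2-deficient bar.

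Summed over the members, the CPM ranged from 1292 to 1398 in control, from 1379 to 1533 in Hdac1-deficient and from 1582 to 1759 in Hdac2-deficient libraries. The Hdac1-deficient range overlapped that of control, and the Hdac2-deficient range lay above both. The sum of Reg3a, Reg3b and Reg3g per kb was exceeded by Reg1 in control, where the ratio of Reg1 to that sum was 4.58 ± 0.347, and in Hdac2-deficient enteroids, where it was 1.4 ± 0.0819, but not in Hdac1-deficient enteroids, where it was 0.509 ± 0.0418.

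Genes near the members did not share a direction. Around the chromosome 6 cluster, Reg3d was the only other listed gene with a start within 500 kb of a member that passed the filter on low counts. Within the cluster, Reg1 fell with Hdac1 deficiency while Reg3a on one side and Reg3g on the other rose. Around Reg4 on chromosome 3, Phgdh, the first enzyme of serine synthesis, which lies 76.4 kb from Reg4, fell by 1.57 on the log2 scale in Hdac1-deficient enteroids (adjusted p = 1.7e-18), and its log2 fold change with Hdac2 deficiency was -0.68 (adjusted p = 4.08e-13). Notch2, a receptor of the Notch pathway that lies on the other side of Reg4, had log2 fold changes of -0.23 (adjusted p = 0.0115) and 0.00 (adjusted p = 0.966).

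**Figure D4:**
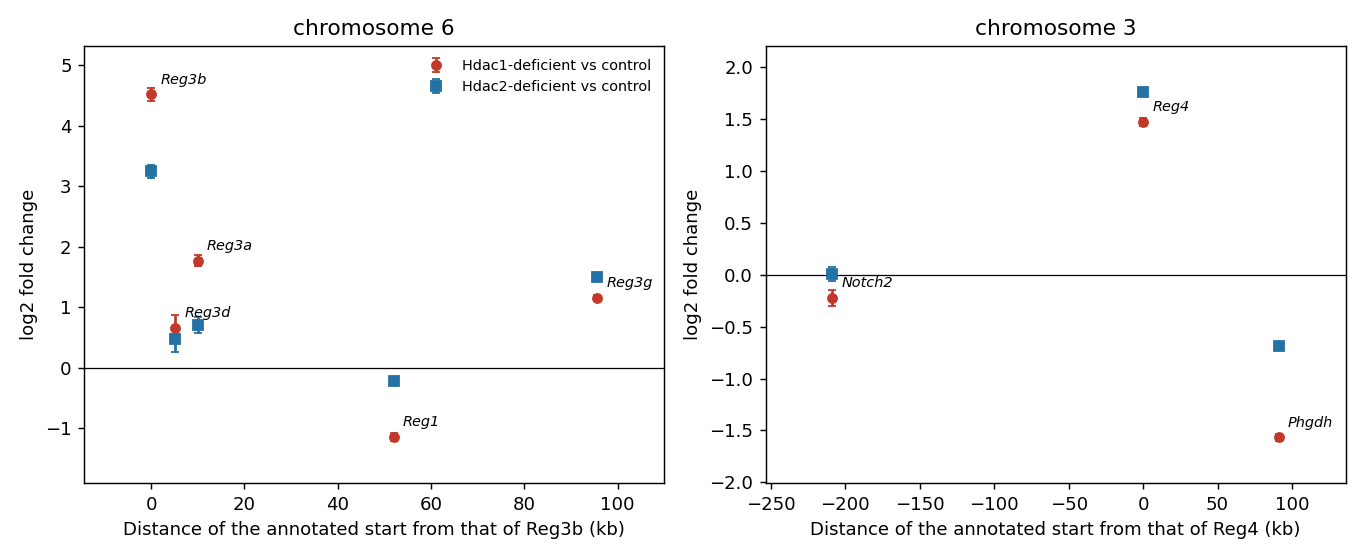
The log2 fold change with its standard error (vertical axis) of the Reg genes and of the neighbouring genes named in the text, against the distance in kb of each gene's annotated start from that of Reg3b (left, chromosome 6) or Reg4 (right, chromosome 3), for Hdac1-deficient (circles) and Hdac2-deficient (squares) against control. Reg1 lies below 0 between Reg3a and Reg3g, and Phgdh lies below 0 beside Reg4.

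Receptors and signal transducers were read from lists of families that include the inducers of Reg3b and Reg3g named above. The lists were chosen with earlier results of these data known. Whether the listed genes act on the Reg genes here was not tested. The counts for these and the later lists are to be read beside the shares of all genes tested. Those shares were 6.87% called higher and 3.71% lower with Hdac1 deficiency, and 5.45% and 2.84% with Hdac2 deficiency. Of 17 tested genes of interleukin-22 and interleukin-6 family receptors and STAT signalling, 2 were called higher and 0 lower in each mutant, with median log2 fold changes of 0.18 and 0.28 beside -0.00 over all genes in both comparisons. Il22ra1, the epithelial subunit of the interleukin-22 receptor, rose with Hdac1 deficiency (log2 fold change 1.24, adjusted p = 9.08e-08), and its value with Hdac2 deficiency was 0.80 (adjusted p = 3.62e-09). The direct difference between the mutants was 0.44 ± 0.0772 (adjusted p = 0.000163). Il11ra1, a receptor for interleukin-11, rose in both, by 1.54 and 1.43. Cish, a feedback inhibitor induced by STAT5, rose in Hdac2-deficient enteroids by 1.55 (adjusted p = 2.24e-07), while its value in Hdac1-deficient enteroids was 0.18 (adjusted p = 0.383). Stat3 itself had log2 fold changes of 0.16 and 0.28, and Socs3, a target and inhibitor of STAT3, had 0.06 (adjusted p = 0.418) and 0.10 (adjusted p = 0.105). These are RNA levels, which do not measure STAT3 activity. By Western blot the study reported more phosphorylated STAT3 in both mutants, and its part in the Reg values was not tested.

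Of 16 cytokine ligands, 8 were listed and 5 were tested. Il22, Il6, Il17a and Il1b were not listed in either table. In each mutant 3 ligands were called higher and 0 lower, with medians of 1.55 and 1.84. Il18, an epithelial cytokine of the interleukin-1 family, rose by 2.15 with loss of Hdac1 and by 2.26 with loss of Hdac2 on the log2 scale. Il33, another member of that family, rose by 1.55 and 1.84.

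Toll-like receptors, NOD proteins and NF-kB components were near the middle of all genes, with medians of -0.11 over 21 and 0.08 over 20 tested genes. Calls were 2 higher and 0 lower with Hdac1 deficiency and 0 higher and 1 lower with Hdac2 deficiency. The lowered gene was Tlr1, a receptor for bacterial lipopeptides, which fell by 2.66 on the log2 scale in Hdac2-deficient enteroids and had 0.89 in Hdac1-deficient enteroids. Myd88, the adaptor of these receptors, had log2 fold changes of 0.38 (adjusted p = 1.67e-05) and 0.27 (adjusted p = 0.000672). Extl3, proposed as a receptor for Reg proteins, had -0.03 (adjusted p = 0.571) and -0.12 (adjusted p = 0.0137).

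Other secreted lectins and antibacterial proteins were also called in part. Of 15 tested, 5 were called higher and 2 lower with Hdac1 deficiency (median 0.48), and 7 higher and 0 lower with Hdac2 deficiency (median 0.95). Retnlb, a bactericidal protein of goblet cells, went from 0.106 ± 0.0211 CPM in control to 41.1 ± 4.73 with Hdac1 deficiency and 67.8 ± 2.98 with Hdac2 deficiency. Its control libraries held 2 to 4 counts each, around the floor of 3 counts, so its control level is uncertain. Zg16, a goblet cell lectin that binds bacterial cell walls, rose by 1.36 and 1.86 on the log2 scale, and Lgals3, a galectin, by 1.07 and 2.04. Sprr2a2, of a family with antibacterial members and near-identical copies that make its counts uncertain, fell by 2.29 with Hdac1 deficiency and rose by 1.01 with Hdac2 deficiency. Of the other epithelial defence genes known to be induced by cytokines, 5 of 14 and 5 of 12 tested were called higher and 0 lower in either mutant, with medians of 0.53 and 0.81.

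Cell type markers changed alongside, and their part in the Reg values was not tested. Across all genes 6.87% were called higher and 3.71% lower with Hdac1 deficiency, and 5.45% and 2.84% with Hdac2 deficiency. Among 12 tested Paneth cell markers 4 were called higher and 1 lower with Hdac1 deficiency and 2 higher and 0 lower with Hdac2 deficiency, with medians of 0.05 and 0.23. Their summed level was 2280 to 2650 CPM in control, 3370 to 3660 in Hdac1-deficient and 3660 to 3830 in Hdac2-deficient libraries. Lyz1, the Paneth cell lysozyme, rose by 1.25 and 1.16 on the log2 scale. Its own level, which enters that sum, was 546 ± 50.9 CPM in control, 1290 ± 35 with Hdac1 deficiency and 1208 ± 46 with Hdac2 deficiency. Habp2 and Ang4, named after their values were seen, went the other way with Hdac1 deficiency. Habp2, the 1 lower call, had log2 fold changes of -1.03 and -0.39, and Ang4, an antimicrobial ribonuclease, had -0.63 and 0.18. The pentraxins Mptx1 and Mptx2 ordered the mutants in opposite ways, with Mptx1 at 1.42 and -0.12 and Mptx2 at 1.71 and 2.97.

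Among 15 goblet cell markers 2 were called higher and 1 lower with Hdac1 deficiency and 3 higher and 0 lower with Hdac2 deficiency, with medians of -0.06 and 0.34. The summed goblet level, 2100 to 2330 CPM in control, was 2080 to 2230 in Hdac1-deficient and 3190 to 3420 in Hdac2-deficient libraries, so that it exceeded control in the Hdac2-deficient libraries only. Clca1, a goblet cell secretory protein, rose by 1.22 and 2.12, whereas Creb3l1 fell by 1.48 in Hdac1-deficient enteroids and had -0.89 in the other mutant. Muc2, the main mucin, had 0.99 and 0.98, just under the limit. Among enteroendocrine markers, 10 of 22 and 6 of 21 tested were called higher and 0 lower, Gcg, the proglucagon gene, by 3.76 and 2.95, while the general marker Chga had 0.14 and -0.18. Their sum was 293 to 301 CPM in control, 357 to 411 in Hdac1-deficient and 355 to 381 in Hdac2-deficient libraries.

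Enterocyte markers were called higher in 7 and 3 of 18 cases and lower in 0, and their sum, 11700 to 12200 CPM in control, was 21900 to 24900 and 18100 to 20200 CPM in the Hdac1- and Hdac2-deficient libraries. Rbp2, a retinol-binding protein of absorptive cells, rose by 1.03 and 1.21. Crypt stem cell markers were called higher in 1 of 12 in each mutant and lower in 0 and 1, with medians of -0.30 and -0.39, and their sum, 5180 to 5320 CPM in control, was 3200 to 3710 and 2910 to 3170 CPM. Olfm4, a stem cell marker, had -0.82 with Hdac1 deficiency and fell by 1.23 with Hdac2 deficiency. Tuft cell markers gave 0 calls in either direction by edgeR in both mutants, over 7 and 6 genes tested, of which 1 and 2 passed the adjusted p threshold without the fold limit.

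Pancreatic acinar markers were examined because Reg genes are strongly expressed in the pancreas. Of 18, only 6 were listed, and their sum was 64 to 73.5 CPM in control, 66.5 to 70.3 in Hdac1-deficient and 56.2 to 60.6 in Hdac2-deficient libraries. Of 4 tested, 1 was called higher with Hdac1 deficiency, Ctrb1, a chymotrypsinogen gene, by 2.61, and 1 was called lower with Hdac2 deficiency, Pnliprp1, a lipase-related gene, by 1.83. The defining genes Prss1, Cpa1, Pnlip and Cel were not listed.

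**Figure D5:**
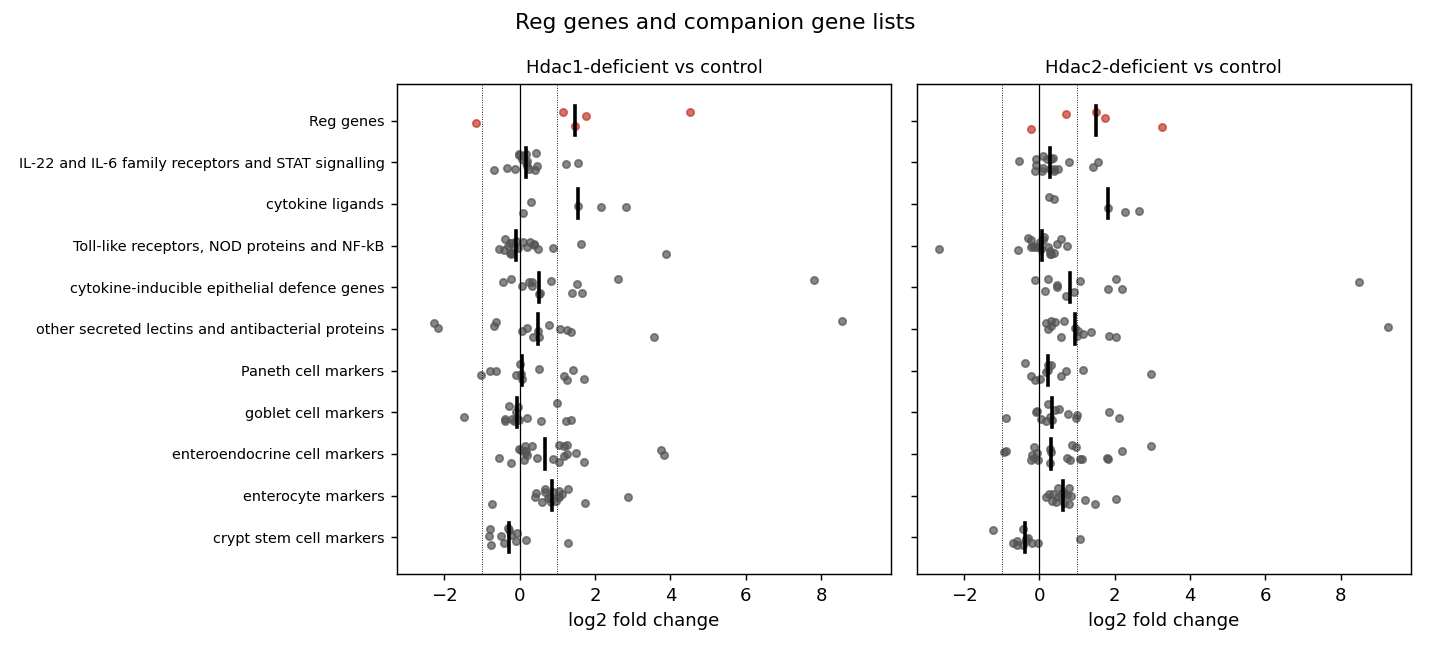
The log2 fold change (horizontal axis, the same scale in both panels) of each tested gene in the Reg group (top row) and in 10 companion lists, for Hdac1-deficient (left) and Hdac2-deficient (right) against control. Points are genes, thick lines are medians and dotted lines mark the 2-fold limit. The Reg group spreads from -1.15 to 4.52 on the left and from -0.23 to 3.25 on the right, and the cytokine ligands have the highest median of the other lists in both panels.

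The genes whose pattern over the 12 libraries was nearest to that of each member were then listed, by the smallest root mean square difference in centred log2(CPM + 1) among 12387 genes with a mean of at least 1 CPM. This likeness is a description, since the 12 points fall into 3 groups. For Reg1 the nearest were Cybrd1, a duodenal iron reductase, at 0.096 and Cadm1, an adhesion molecule, at 0.105. For Reg3a they were Spink1, a secreted trypsin inhibitor, at 0.102, then Cndp2 at 0.154 and Cyp3a11 at 0.159. Spink1 followed Reg3a in level too, from 18.9 ± 1.43 CPM in control to 75.1 ± 3.48 and 35.1 ± 3.39 CPM.

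For Reg3b the nearest were Gm3608 at 0.264, Rec8, a meiotic cohesin subunit, at 0.32 and Cyp2d22 at 0.328. The difference grows with the size of a gene's changes, so these values cannot be set against those of other members. For Reg3g the nearest were Adh4, an alcohol dehydrogenase, at 0.0987, Ccl6, a chemokine, at 0.102 and Sult2b1, a sulfotransferase, at 0.112. For Reg4 they were Mep1b, the meprin beta subunit of the brush border, at 0.0933, Zg16 at 0.102 and Mycn at 0.115. The added 1 CPM shrinks the changes of genes near 0 in control. Mycn, at 0.498 CPM in control, rose 5.46-fold and 7.55-fold in the Hdac1- and Hdac2-deficient enteroids, more than Reg4. Rec8, at 0 to 4 counts in control, rose 542-fold and 170-fold, more than Reg3b. Cyp2d22, at 0.185 CPM in control, rose 147-fold and 86.2-fold, also more than Reg3b. Among the members themselves Reg3g and Reg4 differed least, at 0.144. Reg3g ranked number 6 among all genes for Reg4, and Reg4 ranked number 18 for Reg3g. Seen from Reg3b, the nearest other member was Reg3a at 1.22, which ranked number 121. Seen from Reg1, it was Reg3g, which ranked number 12062.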

How the data were processed

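Poly(A) RNA was sequenced as paired reads of 100 nucleotides with a directional kit. Alignment to GRCm38 was done by the authors with STAR (2.4.0f1 in the submitters' processing notes), and raw counts per gene were deposited per mutant for 8 libraries, leaving out genes whose counts summed to less than 10 (18676 and 18225 genes listed). The counting program, its annotation and strand setting are not given in the sources used here. A normalized score deposited by the authors, and their fold changes and p-values, were not used.

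Here the counts entered edgeR (4.0.16, R 4.3.3), with quasi-likelihood F tests, robust dispersions, TMM factors (0.98 to 1.02), filterByExpr and Benjamini-Hochberg adjustment over all genes tested. Each mutant was set against control in 8 libraries, and mutant against mutant in 12 libraries over genes in both tables. Each standard error (SE) of a log2 fold change is its absolute value divided by the square root of the F statistic. CPM use TMM factors of all 12 libraries. Floors cover counting error only. Replicates differed beyond sampling noise (chi-square per degree of freedom 1.52 to 8.18).

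Members and lists were chosen with earlier results of these data known. Named genes are the members, Reg3d, Hdac1, Hdac2, Extl3, 7 preset pathway or marker genes, called genes among the 3 most changed per list, genes starting within 500 kb and the 3 nearest patterns. Not every gene under this rule is reported here. Promoter windows came from RefSeq (GRCm38.p6). Alternatives were DESeq2 (1.42.0), other scaling, no filter, no fold limit, other sets of libraries, a replicate block and each library left out. Scripts were tested on simulated data.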

Additional observations from a re-analysis of the deposited data

Results flagged for a closer look

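Each of the 5 tested members differed between the mutants in the direct edgeR test, in every library of one group against every library of the other. Without a fold limit 45.9% of 14510 genes differed in that test, and the share of all genes without overlap was not counted. The log2 difference, Hdac1-deficient minus Hdac2-deficient, was 1.27 for Reg3b, 1.06 for Reg3a, -0.35 for Reg3g, -0.29 for Reg4 and -0.92 for Reg1. Among companion genes it was 3.55 for Tlr1, 3.29 for Ctrb1, 1.53 for Mptx1, 1.07 for Pnliprp1, -1.26 for Mptx2, -1.38 for Cish and -3.30 for Sprr2a2. Among the genes listed as nearest in pattern to a member it was 1.66 for Rec8, 1.09 for Spink1, -1.06 for Cadm1 and -1.08 for Cybrd1.

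Single libraries stood apart by Dixon's criterion in 6 of 155 groups of 4 libraries, and chance flags about 1 in 20 groups. None of the 6 concerned a Reg gene. Library 4 of the Hdac2-deficient group was low for Gcg, at 13.3 CPM against 16 to 16.3 in the others, and for Hdac1, at 68.8 against 76.8 to 78.4 CPM, and high for Sult2b1, at 40.1 against 36.4 to 36.9 CPM. Library 2 of that group was low for Socs3, at 19.2 against 21.5 to 22 CPM. Library 4 of the Hdac1-deficient group was low for Mycn, at 2.36 against 2.75 to 2.79 CPM, and control library 2 was high for Tlr1, at 9.05 against 8.22 to 8.35 CPM.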

How the results depend on the processing

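The log2 fold changes of the 5 tested members and Reg3d kept their direction under every alternative run. Of 270 values, 264 also kept their side of the call, and the other 6 passed only because the fold limit was dropped. The setting without that limit reuses the main fit, so its values and directions could not change. Without that limit 1 member was lower with Hdac2 deficiency (Reg1) and 3 were lower in the direct comparison (Reg1, Reg3g and Reg4). With single libraries left out, the members' calls remained, although Reg3a in the direct comparison came down to a log2 difference of 1.01 and its upper value was 1.15. The union of all annotated exons as length was an alternative chosen after seeing the data. With it the levels were 11.6, 263 and 109 CPM per kb for Reg3b and 51, 113 and 144 for Reg3g in control, Hdac1- and Hdac2-deficient enteroids. The length of Reg2 moved too, which took its level from 0.0403 to 0.0295 in control and from 0.101 to 0.0742 CPM per kb in Hdac2-deficient enteroids. The lengths of Reg1, Reg3a and Reg4 did not move. The 6 list counts that moved, of 252, were each a change from 0 to 1 gene. No source says that equal replicate numbers belong together, and same-numbered libraries correlated at -0.181 to 0.191 after removal of group means, with 12 of 24 library and group combinations matching best on the number. The replicate block left 4 members called higher and 1 lower with Hdac1 deficiency, 3 higher and 0 lower with Hdac2 deficiency and 2 higher and 0 lower between the mutants. Depth limits Reg2, at 0 to 3 counts.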
